A study of Homo sapiens with 6 samples.

Results

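Steroid synthesis was followed through 10 genes that carry cholesterol into the mitochondrion, cut and oxidise it, reduce the products or supply the electrons: STAR, TSPO, CYP11A1, FDX1, HSD3B2, CYP17A1, POR, CYP19A1, HSD17B1 and AKR1C3. The genes were chosen by name and found through their Ensembl identifiers, and they are 10 of 58336 genes in the tables. All 6 libraries come from KGN, a line established from a human ovarian granulosa cell tumour, and the comparison asks how expression differs with and without the C134W change in 1 copy of FOXL2, which encodes a forkhead regulator of granulosa cells. The FOXL2 WT/WT libraries are 44a, 4.72 and 4.72-44a, in which CRISPR/Cas9 had returned the C134W allele to wild type. The FOXL2 WT/C134W libraries are 3.11, 44b and 3.11-44b, which kept it, and no editing is recorded for them, so the genotype and the editing procedure cannot be told apart. RNA of every library was taken 30 h after a transfection whose agent the labels leave out. In each genotype 1 library has a title made of both other titles, so the comparison of genotypes used the 4 libraries that name 1 clone each (n = 2 per genotype), and the joined libraries are given beside them. The labels do not say that the clones were grown as several cultures, so each p-value measures the spread between these clones alone. Gene counts do not show which FOXL2 allele a cell carried, so the genotypes rest on the labels.

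Steroid hormones are made from cholesterol, which the STAR protein moves to the inner mitochondrial membrane, where CYP11A1 cuts its side chain to give pregnenolone with electrons from ferredoxin (FDX1). HSD3B2 turns pregnenolone into progesterone, CYP17A1 opens the way to androgens, and CYP19A1 (aromatase) turns androgens into estrogens, the last 2 with electrons from the microsomal reductase POR. In the ovary the steps are shared out: theca cells make androgens with CYP17A1, and granulosa cells aromatise them with CYP19A1 and reduce estrone with HSD17B1. AKR1C3 reduces androstenedione, estrone and prostaglandins in many tissues, and TSPO is a cholesterol- and drug-binding protein of the outer mitochondrial membrane.

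The libraries held 35332727 to 46613068 expected counts, the estimate of reads per gene that the RSEM program writes. At this depth a floor of 3 counts equals 0.0644 to 0.0849 CPM (counts scaled to a common library size), here by library totals alone. The CPM values given for single genes also use TMM normalisation over the 6 libraries. A count of 0 has an exact Poisson interval of 0 to 3.69 counts (95%, counting error only), which reaches above this floor. Of 18 granulosa cell markers, 4 were at 0 in all 6 libraries, namely FSHR, AMHR2, WT1 and GATA4, and these 4 are named because their values were seen. The summed TPM of the 18 (a level per gene length, with the same total in every library) was 664 to 805 in WT/WT and 742 to 879 in WT/C134W, of which SERPINE2 alone held 257 to 486 TPM. Gene by gene, 6 of the 14 tested markers had a positive and 8 a negative log2 fold change. Their median was -0.5, against 0.01 over all genes tested. Of the 14, 0 passed edgeR's quasi-likelihood test, and 4 had an unadjusted p under 0.05 in it, against 7.57% of all genes tested. Of 8 theca and Leydig cell markers, 2 were at 0 in all 6 libraries, and their summed level was 3330 to 7171 TPM in WT/WT against 840 to 1651 TPM in WT/C134W. ACTA2, a smooth muscle actin, carried nearly all of that sum, with 3271 to 7086 TPM in WT/WT and 738 to 1581 TPM in WT/C134W. Its log2 fold change of -2.34 ± 0.57 did not pass edgeR's quasi-likelihood test (Benjamini-Hochberg adjusted p = 0.593). On CPM, ACTA2 differed by 2.21 times between the single WT/WT clones and by 2.25 times between the WT/C134W ones. Of the 5 tested markers 2 had a positive and 3 a negative log2 fold change, and 0 passed. Of 8 adrenal cortex markers, 5 were at 0 in all libraries, with a summed level of 9.01 to 10.1 TPM in WT/WT and 1.3 to 3.1 TPM in WT/C134W, and these values are those of NOV, the 1 tested gene of the list. The log2 fold change of NOV, -2.99 ± 0.34, did not pass edgeR's quasi-likelihood test (Benjamini-Hochberg adjusted p = 0.439, unadjusted p = 0.00016). The part of these marker levels in the results on the 10 genes was not tested.

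By level per gene length, the genes that serve many pathways stood above the enzymes that define steroid synthesis. TSPO had the highest mean, 230 ± 59.6 TPM (SD, n = 6 libraries), above the means of 97.3% of protein-coding genes. POR followed with 23.2 ± 2.66 TPM and FDX1 with 8.7 ± 0.995 TPM. AKR1C3 had 7.84 ± 7.25 TPM, STAR 3.61 ± 1.68 TPM and HSD17B1 1.83 ± 0.974 TPM. STAR (ENSG00000147465, chromosome 8, 38143649 to 38151265, minus strand, GRCh38) thus sat above the means of 49% of protein-coding genes. CYP11A1 at 0.18 ± 0.21 TPM, CYP19A1 at 0.133 ± 0.242 TPM, CYP17A1 at 0.0883 ± 0.18 TPM and HSD3B2 at 0.00667 ± 0.0163 TPM closed the order. In that order the ranges over the 6 libraries were apart for TSPO and POR and for POR and FDX1, and every other gene overlapped with the next one down. TSPO made up 77.2% to 90.5% of the summed TPM of the 10 genes. The cytochromes P450 CYP11A1, CYP17A1 and CYP19A1 together with HSD3B2 summed to at most 1.05 TPM, in clone 44b, and to 0 in clone 3.11. In bulk RNA a low level does not tell fewer expressing cells from less RNA per cell, and these cannot be told apart here.

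**Figure D1:**
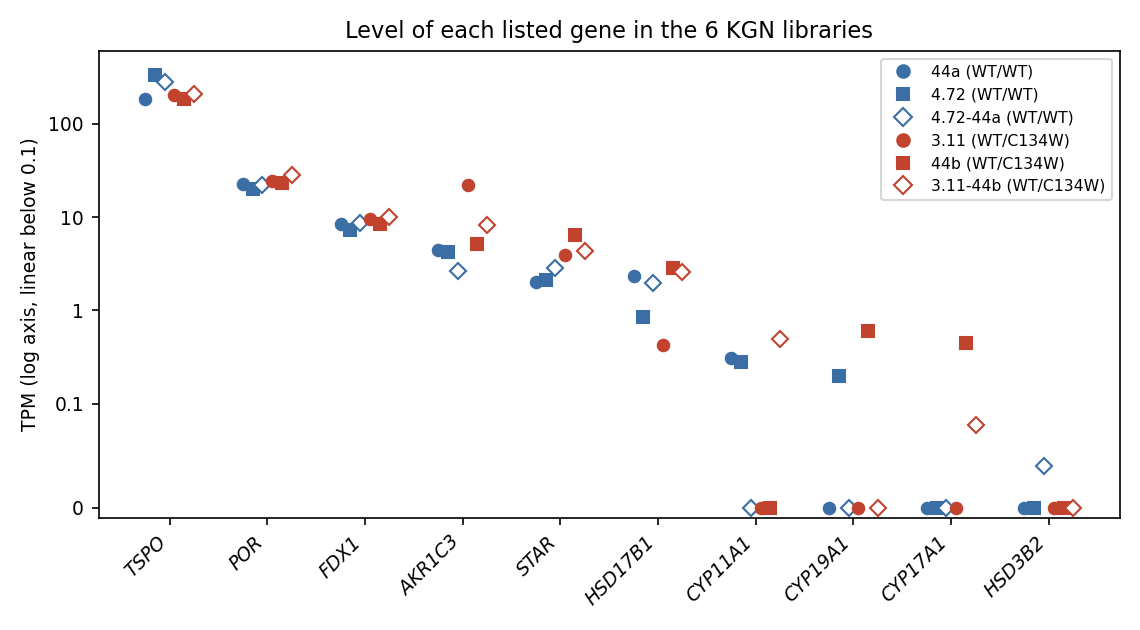
TPM of each of the 10 genes (log axis, linear below 0.1) in the 6 libraries, blue for FOXL2 WT/WT and red for WT/C134W, with open symbols for the libraries that join 2 clone names. TSPO lies between 183 and 331 TPM, and CYP11A1, CYP19A1, CYP17A1 and HSD3B2 lie at 0 in 3, 4, 4 and 5 libraries.

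Cholesterol delivery was read from STAR and TSPO. STAR, whose protein is the acute, hormone-controlled carrier of cholesterol into the mitochondrion, had 3.08 and 2.07 CPM in the single clones 44a and 4.72, and 4.57 and 6.06 CPM in 3.11 and 44b. Its joined WT/WT library had 2.13 CPM and the WT/C134W one 4.12 CPM. All 3 WT/C134W values stood above all 3 WT/WT values, with 44b the highest and 4.72 the lowest. Expressed as WT/C134W relative to WT/WT, the log2 fold change was 1.04 ± 0.46 (SE taken from the F statistic, n = 2 clones in each genotype), and it did not pass edgeR's quasi-likelihood test (Benjamini-Hochberg adjusted p = 0.685). In all other settings that kept the gene, each clone left out included, the value lay between 0.79 and 1.34, and the adjusted p between 0.132, with the joined libraries as replicates, and 1. STAR counts rest on 83 to 275 reads per library, and on TPM the genotypes were again apart, with 2.01 to 2.86 TPM in WT/WT against 3.89 to 6.47 TPM in WT/C134W. The STAR gene overlaps the end of ASH2L on the opposite strand, which held 2228 to 3090 counts. The effective length that RSEM gave STAR ran from 1024 to 2114 bases, and its annotated transcripts include a protein-coding one of 1929 bases and a retained-intron one of 3448 bases. The counts therefore do not show how much of the signal is spliced STAR mRNA.

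TSPO (ENSG00000100300, chromosome 22, 43151514 to 43163242, plus strand) was by far the most abundant of the 10 on the CPM scale as well. It had 95.1 and 169 CPM in the single clones 44a and 4.72, and 89.5 and 80.9 CPM in 3.11 and 44b, with 137 CPM and 94.4 CPM in the joined WT/WT and WT/C134W libraries. The mutant clones lay close together, and the 2 reverted clones differed by 1.77 times, with 4.72 the highest of all libraries. On CPM the ranges did not overlap, by a margin of less than 1 CPM between 44a and the joined WT/C134W library. On TPM they did overlap, with 184 TPM in 44a and 183 to 206 TPM in the WT/C134W libraries. The log2 fold change was -0.63 ± 0.29, which did not pass edgeR's quasi-likelihood test (Benjamini-Hochberg adjusted p = 0.695). It was -0.16 without 4.72 and -1.00 without 44a, and -0.39 with library totals as the only scaling. Across the settings its adjusted p lay between 0.0759, in edgeR without a low-count filter, and 0.999.

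The side-chain cleavage step differed sharply between the enzyme and its electron donor. CYP11A1 (ENSG00000140459, chromosome 15, 74337759 to 74367740, minus strand) had 8 counts in 44a, 5 in 4.72 and 10 in the joined WT/C134W library, and 0 in the other 3. Its 8 counts in 44a have an exact Poisson interval of 3.45 to 15.8 (95%, counting error only), and the 0 counts in 3.11 one of 0 to 3.69. The joined WT/C134W library had counts although both clones in its name had 0. CYP11A1 overlaps an antisense gene on the opposite strand, AC090826.1, which had 0 to 14 counts. Which of the genes these few counts came from was not tested. FDX1 (ENSG00000137714, chromosome 11, 110429883 to 110464881, plus strand), the ferredoxin that passes electrons to mitochondrial P450 enzymes, was steady instead. Its level was 18.7 CPM in 44a, 16.2 CPM in 4.72, 18.5 CPM in 3.11 and 17.2 CPM in 44b, with 18.9 CPM and 20.4 CPM in the joined WT/WT and WT/C134W libraries. The genotypes overlapped, and the log2 fold change of 0.03 ± 0.20 did not pass edgeR's quasi-likelihood test (Benjamini-Hochberg adjusted p = 0.996). Its direction turned to -0.07 without 4.72 and to -0.02 without 3.11.

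FDXR, the reductase that loads FDX1 and named here for that role after its values were seen, had 9.02 and 14.8 CPM in the single clones 44a and 4.72, and 14.7 and 22 CPM in 3.11 and 44b. The groups overlapped between 4.72 and 3.11, and the log2 fold change was 0.63 ± 0.34 (edgeR's quasi-likelihood test, Benjamini-Hochberg adjusted p = 0.746). POR (ENSG00000127948, chromosome 7, 75899200 to 75986855, plus strand) had 28.6 and 28.9 CPM in the single clones 44a and 4.72, and 27.1 and 23.9 CPM in 3.11 and 44b. The joined WT/WT library had 24.7 CPM and the WT/C134W one 26.6 CPM. The 4 single clones did not overlap, but the joined WT/WT library fell inside the WT/C134W range. The log2 fold change of -0.17 ± 0.17 did not pass edgeR's quasi-likelihood test (Benjamini-Hochberg adjusted p = 0.885), and it was 0.05 with library totals as the only scaling and 0.15 on log2(TPM + 1). POR shares its last bases with TMEM120A on the opposite strand, a gene with 599 to 1025 counts. FDX1 and POR thus gave the narrowest spread of the 10 genes relative to their level, with TPM ranges of 7.19 to 10.1 and 19.9 to 27.8.

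The later enzymes of the classical route were at or near the detection limit. HSD3B2 (ENSG00000203859, chromosome 1, 119414931 to 119423035, plus strand), which makes progesterone from pregnenolone, had 2 counts in the joined WT/WT library and 0 in the other 5. CYP17A1 (ENSG00000148795, chromosome 10, 102830531 to 102837533, minus strand), the 17-hydroxylase and lyase of androgen synthesis, had 20 counts in 44b and 4 in the joined WT/C134W library. It had 0 in clone 3.11 and in all 3 WT/WT libraries, and the 20 counts in 44b have an exact Poisson interval of 12.2 to 30.9. The same gene overlaps WBP1L on the opposite strand, which had 1832 to 2603 counts, and which of the genes these few counts came from was not tested. CYP19A1 (ENSG00000137869, chromosome 15, 51208057 to 51338610, minus strand), the aromatase that granulosa cells use to make estrogens, had 4 counts in 4.72 and 13 in 44b, and 0 in the other 4 libraries. The interval of the 13 counts was 6.92 to 22.2. Together CYP11A1, CYP17A1, CYP19A1 and HSD3B2 had 8, 9 and 2 counts in 44a, 4.72 and their joined library, and 0, 33 and 14 in 3.11, 44b and theirs. Both CYP17A1 and CYP19A1 had their highest count in 44b, and neither was seen in 3.11 of the same genotype. These 4 genes did not pass the filter on low counts and were not tested, and none gives a fold change.

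**Figure D2:**
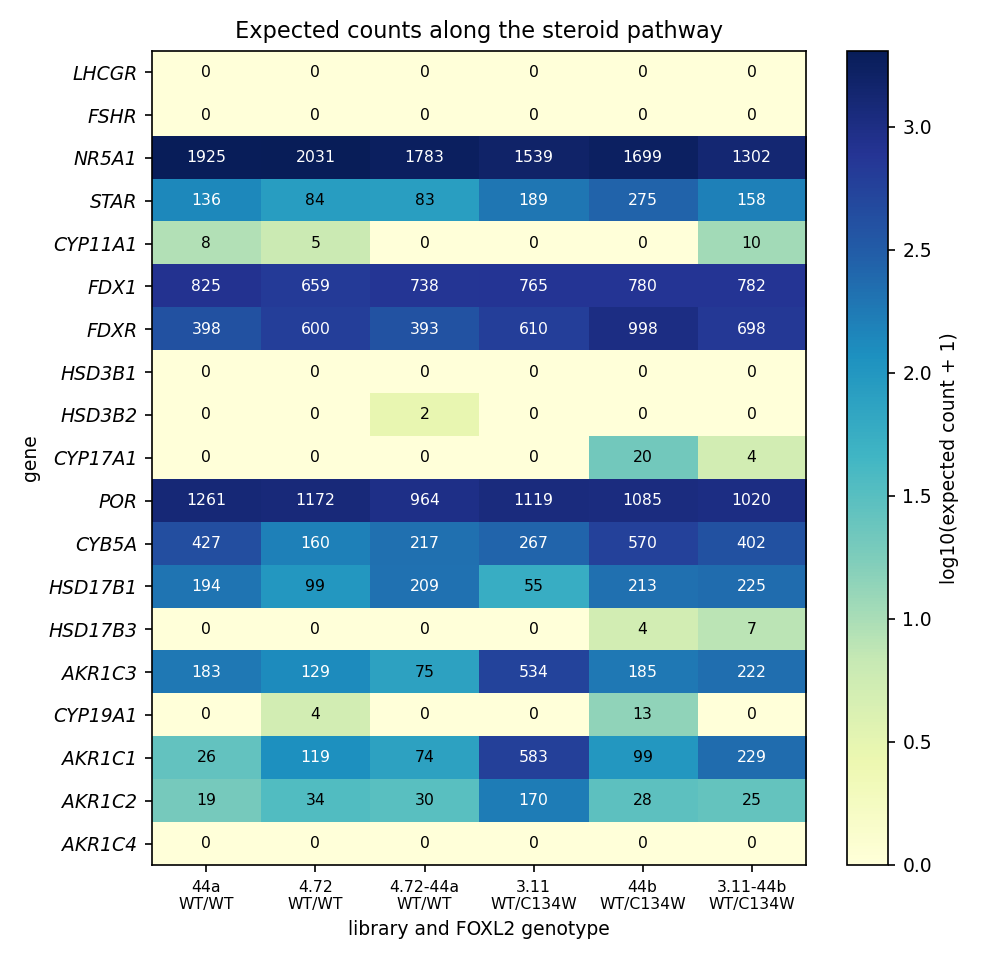
Expected counts of 19 genes along the steroid pathway (rows) in the 6 libraries (columns), each cell printed with its count and coloured by log10(count + 1). The receptors FSHR and LHCGR and the enzymes HSD3B1 and AKR1C4 are at 0 in every library, and the other genes beyond the 10 were picked for their place in the pathway after their values were seen.

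Sequence before the start sites is shown for the 4 genes near the detection limit and for FDX1 and TSPO, which were read in every library, so that the base composition of the 2 sets can be compared. RefSeq promoter entries (GRCh38.p14) matched 7 of the 10 genes, CYP11A1, CYP17A1, CYP19A1, HSD3B2, AKR1C3, TSPO and FDX1, and none was matched for STAR, HSD17B1 and POR. Each run holds the 250 bases before a start, 5′ to 3′ on the gene's strand, with 3 motifs in capitals on either strand: the half-site bound by the steroidogenic factor NR5A1 (AAGGTCA or AAGGCCA), the forkhead core TAAACA and the GC box GGGCGG. The windows are chr15:74367647-74367896 (minus strand) for CYP11A1, chr10:102837414-102837663 (minus) for CYP17A1, chr15:51243030-51243279 (minus) for CYP19A1, chr1:119414681-119414930 (plus) for HSD3B2, chr11:110429698-110429947 (plus) for FDX1 and chr22:43151309-43151558 (plus) for TSPO. For CYP19A1, which has 7 starts in the table, the window nearest to the end of the gene is printed. For TSPO, which has 3 starts, the window farthest upstream is printed.
CYP11A1: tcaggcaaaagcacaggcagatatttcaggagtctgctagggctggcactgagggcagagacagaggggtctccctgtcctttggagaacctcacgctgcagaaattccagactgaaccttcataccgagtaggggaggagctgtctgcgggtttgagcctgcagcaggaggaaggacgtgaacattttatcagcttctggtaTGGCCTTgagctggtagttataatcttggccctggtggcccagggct
CYP17A1: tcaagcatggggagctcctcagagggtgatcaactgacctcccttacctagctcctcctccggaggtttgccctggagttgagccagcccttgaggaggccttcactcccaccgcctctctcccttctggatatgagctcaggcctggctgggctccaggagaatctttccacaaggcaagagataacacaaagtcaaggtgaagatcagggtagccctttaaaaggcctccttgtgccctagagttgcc
CYP19A1: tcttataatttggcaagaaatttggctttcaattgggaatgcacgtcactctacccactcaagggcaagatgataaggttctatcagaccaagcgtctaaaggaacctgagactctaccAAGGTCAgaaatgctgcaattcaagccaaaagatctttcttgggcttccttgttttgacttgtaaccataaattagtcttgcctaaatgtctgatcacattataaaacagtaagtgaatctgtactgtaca
HSD3B2: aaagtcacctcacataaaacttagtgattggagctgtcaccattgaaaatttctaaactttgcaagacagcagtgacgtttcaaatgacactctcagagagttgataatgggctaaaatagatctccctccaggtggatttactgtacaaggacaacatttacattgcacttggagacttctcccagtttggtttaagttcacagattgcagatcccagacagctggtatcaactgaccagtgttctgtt
FDX1: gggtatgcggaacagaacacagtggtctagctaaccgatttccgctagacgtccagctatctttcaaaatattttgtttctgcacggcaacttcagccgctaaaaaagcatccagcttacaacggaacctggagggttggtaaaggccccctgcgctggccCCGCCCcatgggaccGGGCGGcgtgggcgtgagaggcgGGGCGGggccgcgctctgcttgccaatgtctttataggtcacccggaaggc
TSPO: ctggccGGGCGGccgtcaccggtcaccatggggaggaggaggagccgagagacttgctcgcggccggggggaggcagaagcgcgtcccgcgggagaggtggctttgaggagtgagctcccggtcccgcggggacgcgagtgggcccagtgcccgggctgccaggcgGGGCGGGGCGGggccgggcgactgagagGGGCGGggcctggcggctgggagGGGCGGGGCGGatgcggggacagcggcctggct

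The CYP11A1 window holds 1 half-site of the kind bound by NR5A1, starting at position -47 from the start, and the CYP19A1 window holds 1 at position -131. Such a half-site occurs in 7.62% of 35116 upstream windows of the same length, the forkhead core in 11% and the GC box in 42.6%. In CYP11A1 it lies on the opposite strand and so reads TGGCCTT, and 2 pairs of the TSPO boxes share a base. In the CYP17A1 and HSD3B2 windows none of the 3 motifs was matched. The other 6 CYP19A1 windows hold no such half-site, and 1 of them holds a forkhead core at position -93. Among them, chr15:51318498-51318747 and chr15:51288339-51288588 each hold 1 GC box, at positions -44 and -12. The FDX1 window has 3 GC boxes and 18 CpG dinucleotides, and the printed TSPO window has 6 GC boxes and 29 CpG. The TSPO windows not printed, chr22:43151683-43151932 and chr22:43151685-43151934, each hold 1 GC box and 24 CpG. CYP11A1 has 4 CpG, CYP17A1 and the printed CYP19A1 window 2 each, and HSD3B2 has 1, against a median of 11 over all windows. GC content was 78.4% in the printed TSPO window, 58.4% in FDX1, 56% in CYP17A1, 54.4% in CYP11A1, 40.8% in HSD3B2 and 38.8% in the printed CYP19A1 window, with a median of 58% over all windows. AKR1C3, which was read in every library, has 0 CpG in both of its windows, so a low CpG count was not limited to the genes near the detection limit. A match of letters describes the sequence and says nothing of binding in these cells.

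NR5A1 itself, also called SF-1 and picked for this role after its values were seen, was well detected, with 43.6 CPM in 44a, 50 CPM in 4.72, 37.2 CPM in 3.11 and 37.5 CPM in 44b. Both mutant clones were below both reverted clones, and the log2 fold change was -0.33 ± 0.16 (edgeR's quasi-likelihood test, Benjamini-Hochberg adjusted p = 0.72). The gonadotropin receptors FSHR and LHCGR, which switch on the pathway in the ovary through cyclic AMP, were at 0 counts in all 6 libraries. By the exact Poisson interval (95%, counting error only) this allows up to 3.69 counts in each library.

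Reduction of the 17-keto group was represented by HSD17B1 and AKR1C3, and both varied more between clones of 1 genotype than FDX1 and POR did. HSD17B1 (ENSG00000108786, chromosome 17, 42549214 to 42555213, plus strand), which turns estrone into estradiol in granulosa cells and placenta, had 4.4 and 2.44 CPM in the single clones 44a and 4.72, and 1.33 and 4.7 CPM in 3.11 and 44b. The joined WT/WT library had 5.36 CPM and the WT/C134W one 5.87 CPM, each above both clones in its name. Within WT/C134W the clones differed by 3.53 times, and the genotypes overlapped. The log2 fold change of -0.18 ± 0.73 did not pass edgeR's quasi-likelihood test (Benjamini-Hochberg adjusted p = 0.99). It ran from -1.37 without 44b to 0.46 without 3.11, was 0.29 without 44a, and was 0.03 with library totals as the only scaling. HSD17B1 had an effective length of 2448 to 4814 bases across libraries, with protein-coding transcripts of 1265 and 4982 bases, and an antisense gene, AC067852.2, lies within it with 23 to 79 counts. RSEM thus gave short and long transcripts unequal shares of its counts in different libraries.

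AKR1C3 (ENSG00000196139, chromosome 10, 5035354 to 5107686, plus strand) had 4.15 and 3.18 CPM in the single clones 44a and 4.72, and 12.9 and 4.08 CPM in 3.11 and 44b. Its joined WT/WT library had 1.92 CPM and the WT/C134W one 5.79 CPM. Clone 3.11 was the highest, the joined WT/C134W library also lay above the WT/WT range, and 44b lay within that range. On TPM, 44b at 5.19 TPM also lay above the WT/WT libraries, which had 2.67 to 4.49 TPM. The log2 fold change of 1.21 ± 0.60 did not pass edgeR's quasi-likelihood test (Benjamini-Hochberg adjusted p = 0.718), and it was 0.16 without 3.11 and 1.81 without 44b. Across the settings its adjusted p lay between 0.195 and 1. The neighbouring reductases AKR1C1 and AKR1C2, which inactivate progesterone and dihydrotestosterone, were highest in the same clone. AKR1C1 had 26 counts in 44a, 119 in 4.72, 583 in 3.11 and 99 in 44b, and AKR1C2 had 19, 34, 170 and 28 counts in the same order. The joined WT/C134W library held 229 counts of AKR1C1 and 25 of AKR1C2. AKR1C1 had a log2 fold change of 2.21 ± 1.17 (edgeR's quasi-likelihood test, Benjamini-Hochberg adjusted p = 0.747) and passed in edgeR without the low-count filter (adjusted p = 0.00771). The AKR1C genes form a family of similar sequence, and 2.87% of the 75-base stretches of AKR1C3 transcripts also occur in AKR1C1, AKR1C2 or AKR1C4, so some reads could be shared out between them. The corresponding shares were 1.24% for HSD3B2 (with HSD3B1), 1.12% for FDX1 (with a pseudogene), 0.902% for HSD17B1 (with a pseudogene) and 0 for the other 6 genes.

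**Figure D3:**
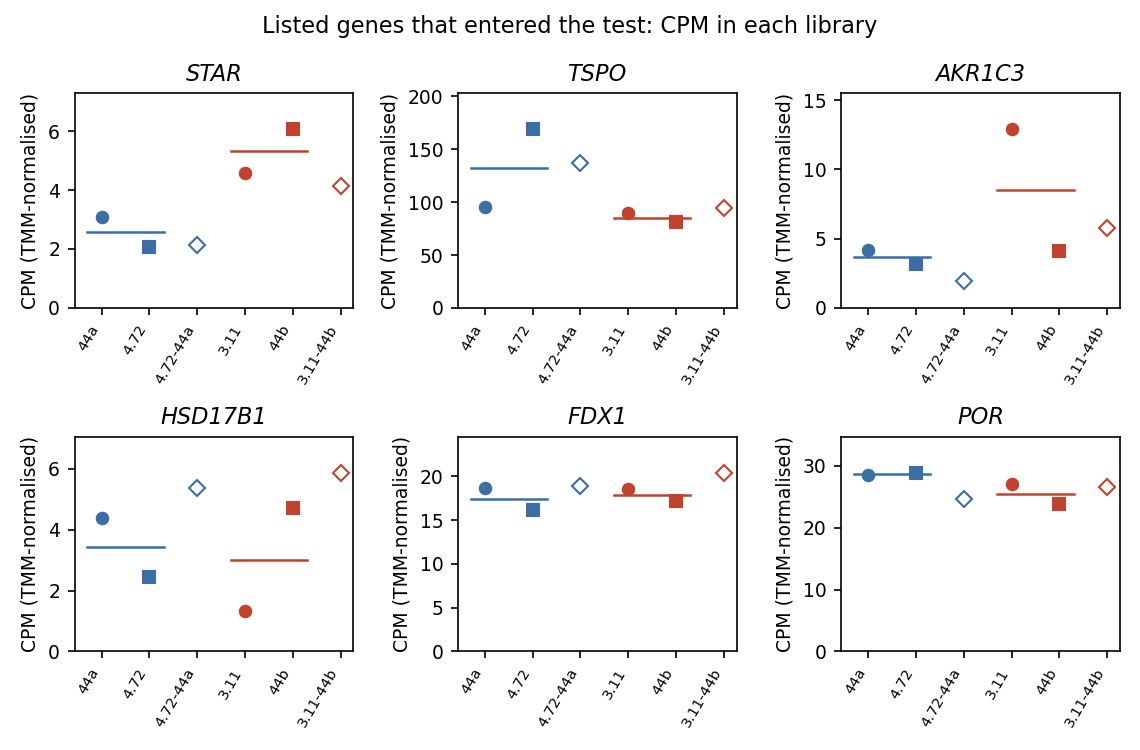
TMM-normalised CPM (linear axes from 0) of the 6 genes that entered the test, 1 point per library, with a line at the mean of the 2 single clones of each genotype and open symbols for the joined libraries. STAR and TSPO show no overlap between genotypes, whereas the AKR1C3 mean in WT/C134W of 8.49 CPM rests on 3.11 with 12.9 CPM.

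The 6 tested genes were set against all genes tested. Of the 6 that were tested, 0 passed edgeR's quasi-likelihood test at a Benjamini-Hochberg adjusted p under 0.05, as did 0% of the 16416 genes tested. An unadjusted p under 0.05 was reached by 0 of the 6, against 7.57% of all genes. The 6 genes also gave 0 calls in DESeq2, which called 1.80% of genes, in limma voom, which called 0%, in edgeR with the joined libraries as replicates, which called 3.18%, and in edgeR without the low-count filter, which called 2.73%. Among the tested genes, 3 had a positive and 3 a negative log2 fold change, with a median of -0.07, against 8309 positive and 8107 negative and a median of 0.01 over all genes. The ranges of the 4 single clones were apart for 1 gene that was higher in WT/C134W (STAR) and 2 that were lower (TSPO and POR), beside 19.9% and 19.7% of all genes tested. Over all 6 libraries they were apart for 1 higher gene (STAR) and 1 lower gene (TSPO), beside 12.0% and 13.9%. A count of 1 or 2 of 6 genes is close to that background. Scaled by library totals alone, all genes together had a median of 0.23, and 5 of the 6 had a positive and 1 a negative value (median 0.15).

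The joined libraries were compared with the clones in their names. In each genotype the joined library lay outside the range of its 2 clones for 4 of the 6 tested genes, beside 50.7% of all genes in WT/WT and 51.0% in WT/C134W, so the count is close to the background. HSD17B1 and FDX1 were above both clones in both genotypes, AKR1C3 and POR below both in WT/WT, STAR below both and TSPO above both in WT/C134W.

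The genes around the 10 were counted in lists by role, and their medians were 0.08 to 0.39 with library totals as the only scaling, in place of the values given with each list. Of 20 genes of cholesterol uptake, storage and transport, 18 were tested and 0 passed edgeR's test. An unadjusted p under 0.05 was reached by 2 of the 18, against 7.57% of all genes tested. Of the 18, 9 had a positive and 9 a negative value, with a median log2 fold change of 0.01. The most abundant, NPC2, which hands cholesterol out of the lysosome, had 590 and 536 CPM in the reverted clones against 294 and 274 CPM in the mutant clones. NPC2 had 530 CPM in the joined WT/WT library and 279 CPM in the joined WT/C134W library, so the groups were well apart. Its log2 fold change of -0.99 ± 0.16 did not pass edgeR's quasi-likelihood test (Benjamini-Hochberg adjusted p = 0.48), but passed in edgeR without the low-count filter (0.00193), with the joined libraries (0.00555) and in DESeq2 (1.17e-05). The fit with the joined libraries counts them as replicates, though by name they may not be separate clones. The other 4 most abundant genes of the list had log2 fold changes of 0.07 ± 0.18 for DBI, a ligand of TSPO, -0.02 ± 0.17 for VDAC1, 0.08 ± 0.14 for VDAC2 and -0.41 ± 0.22 for ATAD3A. VDAC1 and VDAC2 form the pores of the outer mitochondrial membrane on which TSPO sits.

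All 12 genes of electron transfer and cofactor supply were tested, and 0 passed edgeR's test. An unadjusted p under 0.05 was reached by 2 of the 12, against 7.57% of all genes tested. Of the 12, 7 had a positive and 5 a negative log2 fold change, with a median of 0.16. CYB5R3, the reductase of cytochrome b5, had 685 and 737 CPM in 44a and 4.72 against 452 and 412 CPM in 3.11 and 44b, and its joined libraries had 648 CPM and 421 CPM. Its log2 fold change of -0.72 ± 0.17 did not pass edgeR's quasi-likelihood test (Benjamini-Hochberg adjusted p = 0.593). It passed in DESeq2 (0.00405) and in edgeR with the joined libraries as replicates (0.0136), though by name these may not be separate clones. PGD, an enzyme of the pentose phosphate pathway that supplies NADPH, the electron source of POR, had a value of -0.00 ± 0.18, CYB5B had 0.25 ± 0.17 and FDX2, the second ferredoxin, had -0.39 ± 0.28. CYB5A, the cytochrome b5 that favours the lyase reaction of CYP17A1 and picked for it after its values were seen, spread from 3.94 CPM in 4.72 to 12.6 CPM in 44b, with 9.68 CPM in 44a and 6.45 CPM in 3.11.

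Of 20 other steroid P450 enzymes and hydroxysteroid dehydrogenases, 4 were at 0 in all 6 libraries, 10 were tested and 0 passed edgeR's test. An unadjusted p under 0.05 was reached by 1 of the 10, against 7.57% of all genes tested. The 10 had 3 positive and 7 negative values and a median of -0.15. HSD3B7, a bile acid enzyme of the HSD3B family, was the one with the largest difference among the 5 most abundant. It had 33.8 and 45.8 CPM in the reverted clones against 15.8 and 24.8 CPM in the mutant clones, with 30.5 CPM and 27.7 CPM in the joined WT/WT and WT/C134W libraries. Its log2 fold change was -0.97 ± 0.29 (edgeR's quasi-likelihood test, Benjamini-Hochberg adjusted p = 0.613), and it passed in edgeR without the low-count filter (adjusted p = 0.00177). HSD17B4 and HSD17B12, which act mainly on fatty acids, had values of 0.04 ± 0.22 and -0.14 ± 0.15, HSD17B10 had -0.16 ± 0.33 and HSD17B11 had 0.42 ± 0.31. On log2(TPM + 1) HSD17B4 was at 1.14 ± 0.18 (limma, adjusted p = 0.562, against 0.649 to 1 over the other settings), with 59.7 and 52.3 TPM in 44a and 4.72 and 117 and 133 TPM in 3.11 and 44b. Its joined libraries had 56 TPM in WT/WT and 48.4 TPM in WT/C134W, and its effective length ran from 523 to 1622 bases. Of 9 reductases of the AKR1 and SRD5A families, 3 were at 0 in all libraries and 6 were tested, with 0 passing (0 at an unadjusted p under 0.05), 2 positive and 4 negative values and a median of -0.11. AKR1B1, the aldose reductase, had -0.09 ± 0.27, AKR1A1 -0.31 ± 0.18, SRD5A3 -0.12 ± 0.24 and SRD5A1, a 5-alpha reductase, -0.42 ± 0.24.

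The list of 28 transcription factors and hormone receptors that regulate steroid synthesis had 6 genes at 0 and 21 tested, of which 0 passed edgeR's test. An unadjusted p under 0.05 was reached by 2 of the 21, against 7.57% of all genes tested. The list had 12 positive and 9 negative values and a median of 0.08. Its 5 most abundant genes were USF2 at -0.17 ± 0.16, NR2F2 at -0.22 ± 0.30, SP3 at 0.10 ± 0.18, ATF1 at 0.29 ± 0.18 and CEBPB at -0.65 ± 0.19. CEBPB, a factor of the luteinising response, had 41 and 50.6 CPM in 44a and 4.72 against 30.9 and 27.3 CPM in 3.11 and 44b, and the groups did not overlap in the joined libraries either, at 53.9 and 35.4 CPM.

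**Figure D4:**
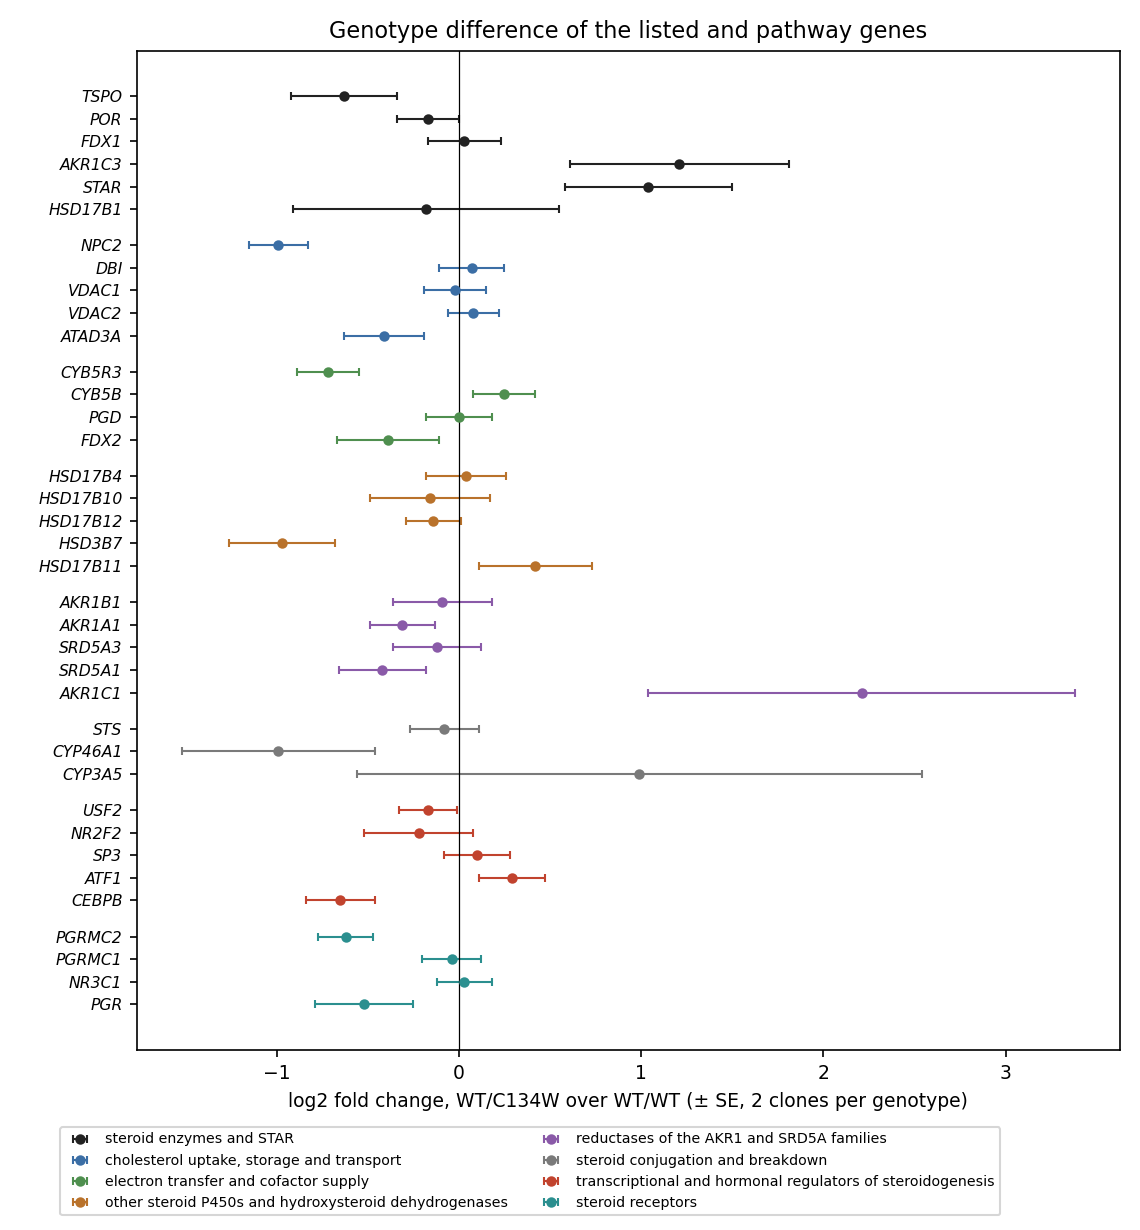
Log2 fold change of WT/C134W relative to WT/WT with its SE (2 clones per genotype) for the 6 tested genes and for abundant genes of each pathway list, coloured by list. STAR at 1.04 and AKR1C3 at 1.21 lie to the right of 0 and TSPO at -0.63 to the left, and CYP24A1 is left out because both single WT/WT clones had 0 counts.

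The genes most like each member were found by correlating log2(CPM + 1) over the 6 libraries among 2105 protein-coding genes with at least 2 CPM and a range of at least 1 log2 unit, and 4 of the 10 genes met the same limits. STAR was followed most closely by ABHD3 (Pearson r = 0.986), RMND5A (r = 0.984) and CPA4 (r = 0.963). TSPO was most like ACAN (r = 0.990), SLC2A1 (r = 0.990) and TSPOAP1 (r = 0.989). AKR1C3 was most like HERC6 (r = 0.989), STXBP4 (r = 0.987) and MRTFB (r = 0.979), and HSD17B1 was most like NKX3-2 (r = 0.969), ATL1 (r = 0.944) and P2RY11 (r = 0.938). The genes most like TSPO were, as TSPO was, highest in 4.72 and its joined library. ACAN, for example, had 50.6 and 29.9 CPM there and 0.331 to 1.75 CPM in the other libraries. Those most like AKR1C3 were highest in 3.11, with HERC6 at 11.3 CPM there and 4.03 to 7.2 CPM elsewhere. A high r can thus rest largely on 1 clone, and shared regulation was not tested. These are descriptions over 6 libraries that share clones, with the closest genes picked from 2105, and no p is given.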

How the data were processed

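The 6 KGN libraries each came with an RSEM gene table, and genotypes were taken from the labels. Per the file headers, the authors deposited an expected count, a TPM, an FPKM and an effective length for every gene. The expected count was deposited with decimals and was rounded to whole numbers here, and the TPM is scaled by the authors to gene length and a common total. The deposited FPKM served only as an alternative for the order of levels, and none of its values is printed. Per the labels' protocols a stranded mRNA kit was used. The submitters' processing notes name the aligner STAR 2.7.6a (a program, not the gene), RSEM 1.3.1, Picard 2.8.1, DESeq2 1.26.0 and R 3.6.3. They also name the mouse build GRCm38, although the identifiers are human, and the strand setting of the counting is not given in the sources used here, so overlapping genes on opposite strands are uncertain.

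Symbols and coordinates come from GENCODE release 29 (GRCh38), which held 58216 of the 58336 identifiers. Genes were kept by filterByExpr, normalised by TMM and compared in R 4.3.3 by edgeR 4.0.16 (robust glmQLFit, then glmQLFTest) on the 4 libraries that name 1 clone, with Benjamini-Hochberg adjustment over all 16416 genes and a threshold of 0.05. An SE was obtained as the absolute log2 fold change over the root of edgeR's F. Alternatives used limma 3.58.1, DESeq2 1.42.0, all 6 libraries, other scalings and filters, a block by clone name and each clone left out. The test was checked on simulated data with a spread set in advance, so the check does not show its power at the spread of these clones. Intervals of counts are exact Poisson at 95% and cover counting error only. Shared stretches were 75 bases long.

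The 10 genes and all lists were chosen with earlier results of these data known. The 10 are always named, the 5 genes with the highest mean TPM are named from each pathway list, of which some are not reported here, and other genes are named as chosen after their values were seen. Markers of Sertoli cells, leukocytes, endothelium and epithelium were counted too. Their summed levels were 3.65 to 6.55 TPM in WT/WT and 11.3 to 14.2 TPM in WT/C134W for 7 Sertoli cell markers, 103 to 115 and 105 to 125 TPM for 8 leukocyte markers, 0.59 to 3.18 and 1.65 to 5.17 TPM for 6 endothelial markers, and 70.2 to 121 and 58 to 82.3 TPM for 6 epithelial markers. In these lists 3, 4, 1 and 0 genes were at 0 in all 6 libraries. Single genes held most of 3 of the sums over the 6 libraries. These were SOX9 at 2.6 to 13.1 TPM (Sertoli), CD68 at 93 to 105 TPM (leukocyte) and KRT7 at 52.1 to 118 TPM (epithelial). Of the tested genes in each list, 0 passed edgeR's quasi-likelihood test.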

Additional observations from a re-analysis of the deposited data

How the results depend on the processing

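None of the 6 tested genes among the 10 passed the threshold under any alternative run, and of their 75 values under alternatives 68 kept their direction and 7 did not. STAR stayed positive and TSPO negative throughout, as did AKR1C3 as positive, and FDX1, HSD17B1 and POR account for the 7. The count of all genes called, 0 in edgeR with the 4 single clones, was 511 with all 6 libraries, 273 with DESeq2 and 664 without a low-count filter, and 0 with library totals alone, median-ratio size factors, limma voom, a filter at 10 CPM, limma on log2(TPM + 1) (chosen after seeing the data) and each clone left out (0 to 0). A replicate block that paired 44a with 44b and 4.72 with 3.11 by name gave 5 calls. The labels do not state that pairing, and the deviations of these pairs correlated at 0.26 over 16416 genes. The fit with all 6 libraries counts the joined ones as replicates, though by name they may not be separate clones. The cause of the differences in calls was not tested.

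Library totals as the only scaling moved the median of all genes to 0.23 and turned the log2 fold changes of HSD17B1 (0.03), POR (0.05), VDAC1 (0.21), PGD (0.22), HSD17B10 (0.07), HSD17B12 (0.09), AKR1B1 (0.14), SRD5A3 (0.10), STS (0.15), USF2 (0.05), NR2F2 (0.02) and PGRMC1 (0.19), all of which lie under that median. On log2(TPM + 1), where the median was 0.13, POR (0.15), VDAC1 (0.06), PGD (0.22), HSD17B12 (0.17), AKR1B1 (0.05), STS (0.07), USF2 (0.00), NR2F2 (0.08) and PGRMC1 (0.12) turned. PGD, at -0.00, was also 0.00 in DESeq2 and with median-ratio size factors and 0.01 with the filter at 10 CPM. With a clone left out the value changed sign for HSD17B1 (-1.37 to 0.46), FDX1 (-0.07 to 0.12), DBI (-0.12 to 0.23), VDAC1 (-0.18 to 0.14), PGD (-0.19 to 0.16), HSD17B4 (-0.22 to 0.25), HSD17B10 (-0.71 to 0.23), HSD17B11 (-0.09 to 0.79), AKR1B1 (-0.46 to 0.20), SRD5A3 (-0.27 to 0.01), STS (-0.26 to 0.08), CYP3A5 (-1.32 to 1.84), NR2F2 (-0.61 to 0.30), SP3 (-0.06 to 0.26), PGRMC1 (-0.13 to 0.04) and NR3C1 (-0.05 to 0.09). Without a clone, 1 genotype keeps a lone library that is assumed to vary like the other group. CYP11A1, CYP17A1, CYP19A1 and HSD3B2 had 0 to 20 counts per library and were not tested between genotypes.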

Other observations

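The genes that receive or remove steroids were measured beside those that make them. Of 9 steroid receptors, 0 were at 0 in all 6 libraries, 7 were tested and 0 passed edgeR's quasi-likelihood test. An unadjusted p under 0.05 was reached by 1 of the 7, against 7.57% of all genes tested. The 7 had 3 positive and 4 negative log2 fold changes and a median of -0.04. PGRMC2, a membrane-bound haem and progestin-binding protein, had 144 and 156 CPM in the single clones 44a and 4.72, and 98.2 and 97.1 CPM in 3.11 and 44b. Its joined WT/WT library had 168 CPM and the WT/C134W one 111 CPM, so the genotypes did not overlap. The log2 fold change of -0.62 ± 0.15 did not pass edgeR's quasi-likelihood test (Benjamini-Hochberg adjusted p = 0.593). It passed in DESeq2 (0.038) and in edgeR with the joined libraries as replicates (0.0216), though by name these may not be separate clones. PGRMC1 had -0.04 ± 0.16, the glucocorticoid receptor NR3C1 0.03 ± 0.15 and the progesterone receptor PGR -0.52 ± 0.27.

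Of 19 genes of steroid conjugation and breakdown, 11 were at 0 in all 6 libraries and 5 were tested, with a median of -0.08. Of the 5, 0 passed edgeR's quasi-likelihood test and 1 had an unadjusted p under 0.05, against 7.57% of all genes tested. The steroid sulfatase STS had -0.08 ± 0.19 and the cholesterol 24-hydroxylase CYP46A1 -0.99 ± 0.53. CYP24A1, which inactivates vitamin D, had 0 counts in 44a and 4.72, 7 in their joined library, and 11, 21 and 9 in 3.11, 44b and theirs. CYP3A5 had 14 counts in 44a, 7 in 4.72, 4 in 3.11 and 40 in 44b, so its highest count was in 44b, as for CYP17A1 and CYP19A1. HSD17B3, the testosterone-forming enzyme of the testis, named after its values were seen, had 4 counts in 44b, 7 in the joined WT/C134W library and 0 in the other 4.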
